A study of Mus musculus with 2 samples.

Results

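The genes of 6 secreted factors of the blood and lymph vessels (Vegfa, Vegfb, Vegfc, Pgf, Apln and Adm) and 2 receptor genes (Aplnr and Ramp3) were followed across the cell classes of dissociated mouse tumours, to ask which class makes each ligand and which holds its receptor. All 8 members were listed in both deposited tables, out of 9127 gene symbols that the tables share. The comparison was between Cdh5-cre Myct1 fl/fl mice, whose floxed Myct1 allele is cut by a Cre recombinase under the promoter of Cdh5, the cadherin of endothelial junctions (called the Myct1 knockout), and wild type (WT) mice, all C57BL/6. Each genotype had 1 droplet library, made from the pooled tumours of 4 animals, so no test between genotypes is possible and a library effect cannot be told apart from genotype. Neither the tumour model nor the age of the mice is given in the sources used here. The samples are labelled as endothelium, but most cells of both libraries were not endothelial.

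VEGF-A is the main growth factor that makes endothelial cells sprout, and acts through the receptor tyrosine kinase VEGFR2, encoded by Kdr. VEGF-B and placental growth factor (PlGF, encoded by Pgf) bind the related receptor VEGFR1, encoded by Flt1, while VEGF-C acts mainly on VEGFR3, encoded by Flt4, in lymphatic vessels. Apelin, encoded by Apln, is a peptide known from the tip cells of growing vessels, and its G protein coupled receptor APJ is encoded by Aplnr. Adrenomedullin, encoded by Adm, signals through the receptor Calcrl when this is paired with the accessory protein Ramp2 or Ramp3. Vegfa and Adm are textbook targets of the hypoxia inducible factors, whose DNA-binding core is often written as the 5 bases ACGTG or GCGTG.

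The promoters of 4 ligand genes are shown because these 4 were higher in the keratin positive cells richest in hypoxia genes, in both libraries. Each sequence is a RefSeq window (build GRCm38.p6) from 250 bases before to 50 bases after an annotated start, read 5′ to 3′ on the gene's strand, in lower case with either of these motifs, on either strand, in capitals. The Adm window is chr7:110627407-110627706 on the plus strand, the Vegfa window chr17:46032328-46032627, the Pgf window chr12:85177264-85177563 and the Apln window chrX:48034804-48035103, the last 3 on the minus strand.
Adm: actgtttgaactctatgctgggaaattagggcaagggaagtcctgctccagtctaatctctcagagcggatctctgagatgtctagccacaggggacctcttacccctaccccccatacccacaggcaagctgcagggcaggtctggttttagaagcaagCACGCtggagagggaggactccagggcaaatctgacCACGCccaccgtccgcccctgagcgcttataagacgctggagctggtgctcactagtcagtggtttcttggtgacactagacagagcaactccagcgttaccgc
Vegfa: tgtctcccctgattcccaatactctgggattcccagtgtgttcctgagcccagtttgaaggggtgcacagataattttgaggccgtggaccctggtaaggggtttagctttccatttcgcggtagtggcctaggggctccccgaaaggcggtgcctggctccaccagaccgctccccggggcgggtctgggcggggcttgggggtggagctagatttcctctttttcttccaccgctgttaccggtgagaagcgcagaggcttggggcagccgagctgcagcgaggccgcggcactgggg
Pgf: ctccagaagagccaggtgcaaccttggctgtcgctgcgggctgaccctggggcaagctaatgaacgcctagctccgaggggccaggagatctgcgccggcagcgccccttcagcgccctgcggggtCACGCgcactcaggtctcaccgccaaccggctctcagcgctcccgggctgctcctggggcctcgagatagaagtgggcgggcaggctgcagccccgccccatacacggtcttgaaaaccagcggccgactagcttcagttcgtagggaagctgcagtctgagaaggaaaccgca
Apln: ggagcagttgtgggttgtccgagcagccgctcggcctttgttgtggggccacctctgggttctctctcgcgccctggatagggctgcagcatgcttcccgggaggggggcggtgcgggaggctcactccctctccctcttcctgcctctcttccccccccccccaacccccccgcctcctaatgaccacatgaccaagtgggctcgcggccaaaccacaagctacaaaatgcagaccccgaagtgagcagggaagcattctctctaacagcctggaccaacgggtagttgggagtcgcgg
The Adm window held 2 matches, both to GCGTG, and the Pgf window held 1 match to GCGTG, while the windows of Vegfa and Apln held none. Another start of Vegfa (chr17:46025114-46025413, minus strand) had 1 match to ACGTG and 1 to GCGTG, and another start of Pgf (chr12:85175933-85176232, minus strand) had none. The windows of Vegfb and Ramp3 held 2 matches each to GCGTG, and the window of Vegfc held none. Over all 32851 windows of the table, 43.8% held at least 1 match to either string on either strand, so that a match in this window is common and describes only these letters.

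The knockout table held 10700 barcodes with 145331950 unique molecular identifiers (UMIs, counted transcripts), and the WT table held 10880 barcodes with 115519153 UMIs. After quality and doublet filters 7994 knockout and 7841 WT cells were kept. Cells were assigned by marker gates (3 or more of 7 endothelial or 7 mural markers, or 4 or more of 6 fibroblast markers, each with a minimum share of the cell's UMIs, or a UMI of both keratins Krt8 and Krt18). This gave 304 knockout and 528 WT endothelial cells, 33 knockout and 96 WT mural cells (pericytes and smooth muscle cells), 147 knockout and 2801 WT fibroblasts, and 6598 knockout and 3676 WT keratin positive cells. Levels are CPM, the UMIs of a gene scaled to a fixed total of all UMIs, computed from counts summed over a class in 1 library, with an exact Poisson 95% interval, and they describe counting error only. Cdh5 stood at 1030 CPM in knockout and 1706 CPM in WT endothelial cells and at no more than 1.3 CPM in the other 3 classes of either library. Cdh5 is among the 7 endothelial gate markers, so this follows in part from the gate and is no check of the labels. Myct1, the targeted gene, stood at 247 CPM in WT endothelial cells (232 to 264 CPM) and is not listed in the knockout table. The lowest maximum of any listed gene was 4 UMIs in 1 barcode in each table.

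A ratio was called where it reached 2-fold, its exact conditional binomial 95% interval excluded 0 on the log2 scale and both sums together held at least 20 UMIs. The libraries differed in which cells they held, and a class sum can differ because its cells are different cells or because each cell holds more RNA of the gene, which cannot be told apart in a sum. Barcodes shared by both libraries numbered 218, and 48 of the 147 knockout fibroblasts carried a barcode that is also in the WT library. These 48 cells had a median of 567.5 UMIs against 11727 in the other 99 knockout fibroblasts, all 48 lay in cluster 14, and 42 of their WT namesakes were also gated as fibroblasts. With all shared barcodes left out, every one of the 185 values and counts recomputed kept its direction and its side of the calling rule.

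Vegfa was made mainly outside the endothelium. It stood at 30.6 CPM in endothelial cells (24.4 to 38.0 CPM), 184 CPM in mural cells, 274 CPM in fibroblasts and 165 CPM in keratin positive cells of the knockout library. In the WT library it stood at 14.3 CPM in endothelial cells (10.8 to 18.6 CPM), 68.1 CPM in mural cells, 268 CPM in fibroblasts and 265 CPM in keratin positive cells. Endothelial cells were thus lowest in both libraries, at a log2 ratio to keratin positive cells of -2.43 in the knockout and -4.21 in WT. Fibroblasts and keratin positive cells did not differ beyond counting error in WT (log2 0.02, -0.02 to 0.06), while in the knockout the ratio of fibroblasts to keratin positive cells was log2 0.73 (0.58 to 0.88), which was not called. Because keratin positive cells were so many, they held 97.3% of the Vegfa UMIs of the 5 gated classes in the knockout and 69.3% in WT, with 1.91% in knockout and 30.1% in WT fibroblasts.

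Vegfb and Vegfc stood at no more than 42.1 CPM in any of the 4 classes. Vegfb was highest in keratin positive cells, at 42.1 CPM in the knockout and 31.9 CPM in WT, where 47.5% of knockout and 37.0% of WT cells held a UMI. The other classes lay between 17.6 and 21.6 CPM in the knockout with overlapping intervals, and between 8.6 and 18.1 CPM in WT. Vegfc varied little: endothelial, fibroblast and keratin positive cells had 24.7, 27.3 and 26.7 CPM in the knockout and 24.98, 24.5 and 29.7 CPM in WT. Mural cells held 4 UMIs in the knockout and 3 UMIs in WT (4.2 CPM, 0.9 to 12.2 CPM), and the endothelial over mural ratio of Vegfc was called in WT (log2 2.58) but not in the knockout (log2 1.17, -0.26 to 3.08). Figf, the mouse gene for VEGF-D, which is no member, stood at 102 CPM in knockout and 305 CPM in WT fibroblasts and at no more than 11.1 CPM in the other 3 classes.

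Per UMI, Pgf stood highest in vascular cells. Endothelial cells had 317 CPM in the knockout (296 to 339 CPM) and 119 CPM in WT (109 to 131 CPM), and mural cells had 52.2 CPM in the knockout and 120 CPM in WT. Fibroblasts stood at 18.7 CPM in the knockout and 23.2 CPM in WT, and keratin positive cells at 8.4 CPM in the knockout and 12.5 CPM in WT. The order of the classes therefore differed: endothelial cells were 6.08-fold above mural cells in the knockout, whereas in WT the 2 classes did not differ beyond counting error (log2 0.00, -0.34 to 0.34). Of the Pgf UMIs over the gated classes, endothelial cells held 45.3% in the knockout and 24.0% in WT. Keratin positive cells, at a far lower level but in larger numbers, held 52.3% in the knockout and 39.5% in WT, and fibroblasts held 1.39% in the knockout and 31.6% in WT.

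Apln and its receptor Aplnr both had their highest level in endothelial cells. Apln stood at 335 CPM in knockout and 313 CPM in WT endothelial cells, against 20.1 CPM in knockout and 40.3 CPM in WT fibroblasts, 18.8 CPM in knockout and 25.9 CPM in WT keratin positive cells, and 1 UMI in the mural cells of each library. By number of UMIs, however, keratin positive cells held 70.4% of Apln in the knockout and 41.1% in WT, and endothelial cells held 28.6% in the knockout and 31.5% in WT. Aplnr stood at 132 CPM in knockout endothelial cells (118 to 146 CPM) and 322 CPM in WT endothelial cells (304 to 340 CPM). No Aplnr UMI was seen in mural cells of either library or in knockout fibroblasts, 26 UMIs were seen in 2801 WT fibroblasts (1.0 CPM), and keratin positive cells had 0.17 CPM in the knockout and 0.26 CPM in WT. Against the level that 3 counts would give, Aplnr was at least 61.0-fold higher in endothelial cells than in fibroblasts and at least 15.96-fold higher than in mural cells in the knockout, and at least 77.2-fold higher than in mural cells in WT. Per cell, 42.4% of knockout and 51.7% of WT endothelial cells held an Aplnr UMI at median depths of 7343 and 6280 UMIs, while 0.27% of knockout and 0.41% of WT keratin positive cells did so at 16688 and 16133 UMIs.

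Adm had several sources. In the knockout library it was highest in endothelial cells at 257 CPM (238 to 277 CPM), with 139 CPM in fibroblasts, 39.1 CPM in keratin positive cells and 3 UMIs in mural cells. In the WT library it was highest in fibroblasts at 279 CPM (272 to 285 CPM), with 133 CPM in endothelial cells, 68.0 CPM in keratin positive cells and 15.3 CPM in mural cells. Endothelial over fibroblast cells had a log2 ratio of 0.88 in the knockout, which was not called, and endothelial cells were lower than fibroblasts in WT (log2 -1.07). By number of UMIs, however, keratin positive cells held 83.8% of Adm over the gated classes in the knockout and 34.4% in WT. Fibroblasts held 3.54% in the knockout and 60.4% in WT, and endothelial cells 12.6% in the knockout and 4.28% in WT. Ramp3, one of the accessory proteins that turn Calcrl into an adrenomedullin receptor, stood at 129 CPM in knockout and 109 CPM in WT endothelial cells and at no more than 4.3 CPM in the other 3 classes of either library. Endothelial cells held 96.6% of its UMIs over the gated classes in the knockout and 96.5% in WT.

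**Figure D1:**
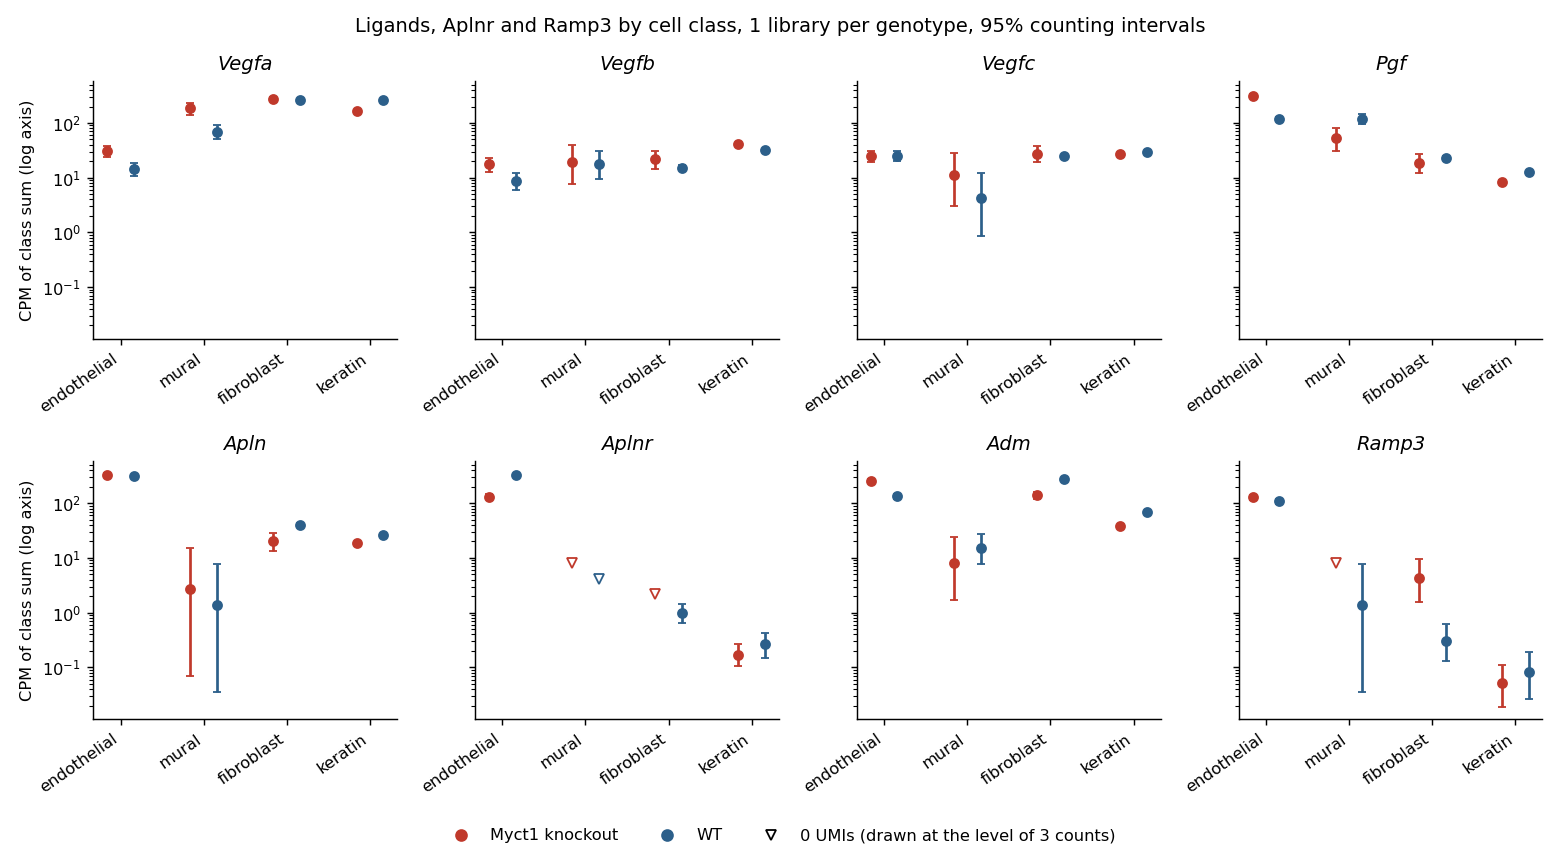
Level of each member in CPM of the class sum (log axis) in endothelial, mural, fibroblast and keratin positive cells, with the Myct1 knockout left of WT in each class and exact Poisson 95% intervals. Aplnr and Ramp3 are at 109 to 322 CPM in endothelial cells and near 0 elsewhere, Vegfa is lowest in endothelial cells, and open triangles mark classes with 0 UMIs, drawn at the level of 3 counts.

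For endothelial over keratin positive cells 5 members were higher and 2 lower of 8 tested in the knockout, where 32.2% of 8841 genes were called in either direction, and 4 were higher and 2 lower in WT, where 37.1% of 8887 genes were. For endothelial over fibroblast cells 4 members were higher and 1 lower of 8 in the knockout (background 30.6%), and 4 were higher and 2 lower in WT (background 34.2%). For endothelial over mural cells 5 were higher and 1 lower of 8 in the knockout (22.5%), and 5 were higher and 2 lower in WT (27%). For fibroblast over keratin positive cells 2 of 7 were higher in the knockout (27.8% called in either direction) and 2 were higher and 1 lower of 7 in WT (40.2%). For mural over keratin positive cells 1 was higher and 3 lower of 7 in the knockout (18.9%) and 1 was higher and 4 lower of 6 in WT (32.1%), and for mural over fibroblast cells 1 was higher and 2 lower of 6 in the knockout (12.4%) and 1 was higher and 4 lower of 7 in WT (25.6%). The median log2 ratio of endothelial over keratin positive cells was 3.44 over the members and 0.10 over all genes tested in the knockout, and 2.11 and 0.17 in WT. The members were put together as vascular ligands and receptors, so that an endothelial lean of the list was partly given by its choice.

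By level, most receptors of these ligands, from the list of 22 receptors, related ligands and processing enzymes, stood highest in endothelial cells too. By number of UMIs, Kdr had 645 endothelial and 38 keratin positive UMIs in the knockout, and 2289 and 22 in WT. Flt1, however, had 2087 endothelial and 5352 keratin positive UMIs in the knockout, and 5050 and 2973 in WT. Flt1 stood at 780 CPM in knockout and 1314 CPM in WT endothelial cells, and was the VEGF receptor with a sizeable level in mural cells, at 179 CPM in the knockout and 563 CPM in WT. Kdr stood at 241 CPM in knockout and 596 CPM in WT endothelial cells and at no more than 8.5 CPM in the other 3 classes. Flt4 stood at 99.0 CPM in knockout and 189 CPM in WT endothelial cells and at no more than 0.72 CPM elsewhere. The co-receptors were shared more widely. Nrp1 had 284, 140 and 166 CPM in knockout endothelial, mural and fibroblast cells and 625, 318 and 217 CPM in the same WT classes. Nrp2 had 96.0 CPM in knockout and 129 CPM in WT keratin positive cells. In WT the level of Nrp2 was higher still in endothelial cells (643 UMIs) and mural cells (142 UMIs).

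For adrenomedullin, Calcrl stood at 86.3 CPM in knockout and 221 CPM in WT endothelial cells, and between 5.1 and 40.3 CPM in the other classes of either library. By number of UMIs, Calcrl had 231 endothelial and 601 keratin positive UMIs in the knockout, and 848 and 939 in WT. Ramp2 stood at 873 CPM in knockout and 731 CPM in WT endothelial cells, with 29.5 CPM in knockout and 56.4 CPM in WT fibroblasts. Ramp1, which turns Calcrl into a receptor for calcitonin gene-related peptide, was the mural member of the family, at 102 CPM in knockout and 121 CPM in WT mural cells against 1.1 CPM in knockout and 0.52 CPM in WT endothelial cells. Ackr3, the scavenger receptor for adrenomedullin, was highest in fibroblasts at 141 CPM in the knockout and 411 CPM in WT. Flt1, Kdr, Flt4, Calcrl, Ramp2 and Aplnr thus had their highest level of the 4 classes in endothelial cells of both libraries.

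**Figure D2:**
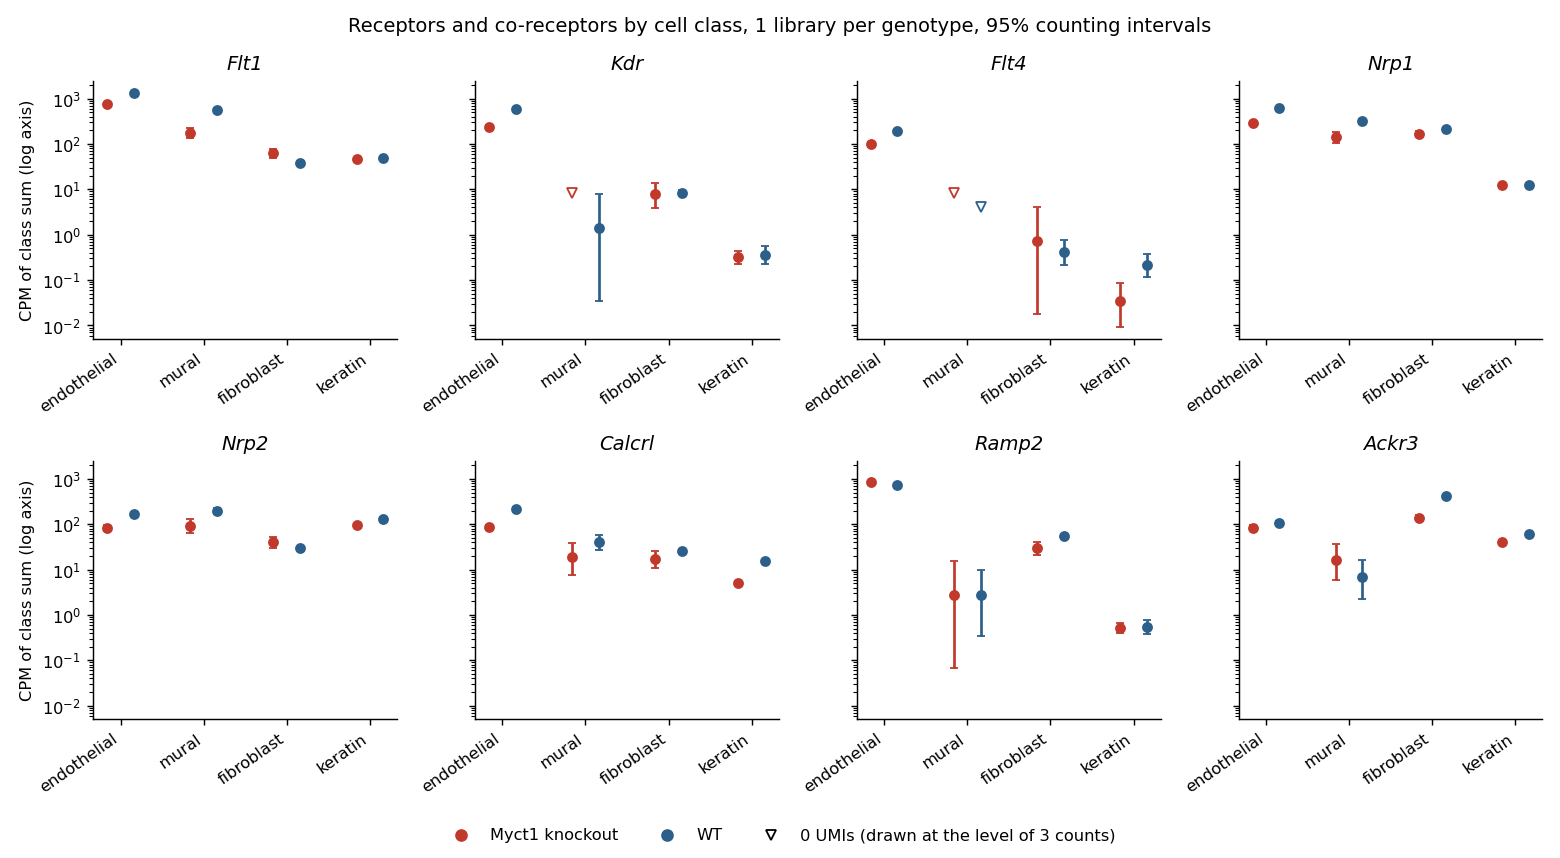
Level of 8 receptors and co-receptors in CPM of the class sum (log axis) by class, the Myct1 knockout left of WT, with exact Poisson 95% intervals. Flt1, Kdr, Flt4, Calcrl and Ramp2 are highest in endothelial cells of both libraries, Flt1 is also present in mural cells and Ackr3 is highest in fibroblasts.

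Between genotypes, endothelial Pgf was higher and Aplnr lower in the knockout. Pgf was 2.66-fold higher (log2 1.41, 1.25 to 1.58), with 849 UMIs in 304 knockout cells and 458 UMIs in 528 WT cells, and 39.5% of knockout against 17.0% of WT cells held a UMI. Aplnr was lower at log2 -1.29 (-1.47 to -1.12), with 352 UMIs in the knockout and 1237 UMIs in WT. Vegfa (82 knockout and 55 WT UMIs, log2 1.10, 0.59 to 1.62) and Vegfb (47 knockout and 33 WT UMIs, log2 1.03, 0.36 to 1.72) were also called higher. Adm had a log2 ratio of 0.95 (0.78 to 1.12), Ramp3 of 0.25, Apln of 0.09 (-0.03 to 0.22) and Vegfc of -0.02, none of them called.

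Of the 8 members 3 were thus higher and 1 lower in knockout endothelial cells, where 16.4% of 8165 genes were called in either direction, 3.82% of the genes higher and 12.6% lower. The median log2 ratio was 0.60 over the members and -0.32 over all genes tested. Set against that median of all genes, Pgf stood at 1.73, Vegfa at 1.42, Vegfb at 1.35, Adm at 1.27, Ramp3 at 0.56, Apln at 0.41, Vegfc at 0.30 and Aplnr at -0.97, which adds Adm to the calls and ends the call of Aplnr. Pgf stayed between 1.10 and 1.73 under all 14 alternatives. The call of Vegfa ended when endothelial cells with any keratin UMI were left out (log2 0.50), with a mitochondrial limit of 5% (0.93) or 20% (0.88) and with the mean of per-cell CPM (0.82). Vegfb lost its call with classes from clusters (0.95), a mitochondrial limit of 20% (0.82), cells thinned to 3000 UMIs (0.31) and the mean of per-cell CPM (0.88).

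Keratin RNA moved with these values. In endothelial cells Krt8 stood at 34.4 CPM in the knockout and 10.1 CPM in WT and Krt18 at 30.3 CPM in the knockout and 10.9 CPM in WT, while keratin positive cells had 165 CPM of Vegfa in the knockout and 265 CPM in WT. Its part in the endothelial Vegfa and Vegfb ratios was not tested beyond leaving out cells with a keratin UMI. Without those cells Pgf was at log2 1.60 and Aplnr at -1.19. Leaving out endothelial cells with a UMI of the lymphatic gene Prox1 left Pgf at 1.38 and Aplnr at -1.32.

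In mural cells 3 members had enough UMIs to be compared, and 2 of them were called, against a background of 14.6% of 6434 genes. Pgf was lower (19 UMIs in 33 knockout cells and 86 UMIs in 96 WT cells, log2 -1.20, -1.996 to -0.47), the opposite of its direction in endothelial cells. Vegfa was higher (67 knockout and 49 WT UMIs, log2 1.43, 0.88 to 1.996). Most of the knockout Vegfa came from few cells: 10 of 33 held a UMI, the highest cell held 17 and the next 16. Both calls ended when the marker share that a cell needs was doubled, with Pgf at -0.42 and Vegfa at 0.20. Krt8 stood at 96.2 CPM in knockout and 31.98 CPM in WT mural cells. Its part was not tested beyond leaving out cells with a keratin UMI, which left 20 knockout and 89 WT mural cells. The Pgf call also ended without cells holding a keratin UMI (-0.45), at a mitochondrial limit of 5% (-0.97), with cells thinned to 3000 UMIs (-0.19), with the mean of per-cell CPM (-0.97), with TMM scaling (-0.97) and against the median of all genes (-0.93), and the Vegfa call with classes from clusters (0.64).

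In fibroblasts none of 7 members tested was called, against 15.3% of 8746 genes, which is a count by size and interval only. Adm (log2 -0.9996, -1.21 to -0.79) and Apln (-0.9999, -1.60 to -0.46) lay just short of the 2-fold rule, and Vegfa at 0.03 (-0.12 to 0.18). The fibroblasts of the libraries were not the same mix. Of the 2801 WT cells 1555 lay in cluster 3, led by Smpd3, Daglb and Aldh1a3 in WT, and 563 in cluster 10, led by Spp1, Acta2 and Tnc in WT, while the knockout had 20 cells in cluster 3, 62 in cluster 10 and 50 in cluster 14, a shallow cluster led by haemoglobin genes. Within cluster 3 Adm stood at 389 CPM in the knockout and 372 CPM in WT, and within cluster 10 at 73.8 CPM in the knockout and 113 CPM in WT (log2 -0.61, -0.98 to -0.26). Pgf and Apln differed more within cluster 10: Pgf had 23.6 CPM in the knockout and 63.6 CPM in WT (log2 -1.43, -2.102 to -0.83) and Apln had 19.5 CPM in the knockout and 48.6 CPM in WT (log2 -1.32, -2.07 to -0.66). Krt8 stood at 182 CPM in knockout and 12.2 CPM in WT fibroblasts. Its part in the class ratios was not tested beyond leaving out cells with a keratin UMI, which left 114 knockout and 2520 WT fibroblasts.

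In keratin positive cells, the largest class, none of 7 members tested was called, where 4.82% of 8832 genes were. Adm had the ratio farthest from 0 (log2 -0.80, -0.86 to -0.74), followed by Vegfa (-0.68, -0.71 to -0.65), Aplnr (-0.63, -1.66 to 0.41), Pgf (-0.58), Apln (-0.47), Vegfb (0.40) and Vegfc (-0.15). Adm, Vegfa, Pgf and Apln thus lay below 0 here and above 0 in endothelial cells, where the interval of Apln included 0. The median over all genes was -0.25 in this class. The keratin positive cells of the libraries were not the same mix either. Cluster 0 held 1616 knockout and 36 WT cells, and cluster 1 held 314 knockout and 1222 WT cells. Within cluster 1 Adm stood at 98.8 CPM in the knockout and 145 CPM in WT, but within cluster 4 at 10.6 and 4.3 CPM. Vegfa stood at 247 CPM in the knockout and 327 CPM in WT within cluster 1, and at 125 and 129 CPM within cluster 0.

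Of 11 receptors and partners tested in endothelial cells 1 was higher and 5 lower, with a median of -0.93, beside 3.82% higher, 12.6% lower and a median of -0.32 over all genes. The lower genes were Calcrl (log2 -1.35), Kdr (-1.30), Nrp1 (-1.14), Pam (-1.11), the enzyme that amidates adrenomedullin, and Nrp2 (-1.01). Relative to the median of all genes the call held for Calcrl (-1.04) and ended for Kdr (-0.99), Nrp1 (-0.82), Pam (-0.80) and Nrp2 (-0.69). The higher gene was Ccbe1, which helps to process VEGF-C (20 knockout and 3 WT UMIs, log2 3.26), and which stood at 88.6 CPM in knockout and 138 CPM in WT keratin positive cells. Flt4 lay at -0.93, Furin at -0.77, Flt1 at -0.75, Ackr3 at -0.31 and Ramp2 at 0.26. Of the parts of the adrenomedullin receptor, Calcrl was thus lower, while Ramp2 at 0.26 and Ramp3 at 0.25 were not called.

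The 23 hypoxia genes, a list of glucose uptake, glycolysis and oxygen-sensing genes that holds no member, had 7 higher and 0 lower in knockout endothelial cells, with a median of 0.76, beside the same 3.82% higher and 12.6% lower over all genes. Hk2 (60 knockout and 5 WT UMIs, log2 4.11), the glycolytic gene Pgk1 (2.02), the mitochondrial autophagy gene Bnip3 (1.69) and the collagen modifying gene P4ha2 (1.49) stood farthest from 0 among them. Relative to the median of all genes, Aldoa (1.22), Egln3 (1.26), Ero1l (1.24), P4ha1 (1.08) and Pfkl (1.08) were higher too. In keratin positive cells the same list had 0 higher and 2 lower with a median of -0.48, where 0.906% of all genes were higher and 3.92% lower, the lower ones being Vldlr (-1.28) and Ero1l (-1.11). The median of the list lay on the same side of 0 as Pgf and Adm in both of these classes. In mural cells, however, the list median was 0.53 while Pgf was at -1.20. There 5 of 21 list genes tested were higher and 0 lower, beside 2.64% and 12% of all genes. In fibroblasts the list median was 0.29 while Adm was at -0.9996 and Pgf at -0.31. There 4 of 23 list genes were higher and 1 lower, beside 7.82% and 7.5% of all genes. Keratin RNA in the endothelial sums moved in the same direction, and its part in the list's ratios was not tested. Haemoglobin RNA moved the other way, with 7 Hbb-bs UMIs in knockout and 1287 in WT endothelial cells.

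The ligands were next compared along that list within a class. Cells were thinned to 3000 UMIs each, ranked by their UMIs of the hypoxia list and split in 4 bins of equal size. In knockout keratin positive cells Adm stood at 5.3, 17.0, 33.9 and 96.9 CPM over the bins and in WT at 4.5, 22.9, 64.6 and 171 CPM. Vegfa stood at 107, 144, 166 and 244 CPM in the knockout and at 123, 208, 286 and 384 CPM in WT. The top over bottom ratio was called for Adm (log2 4.18 in the knockout and 5.25 in WT), Vegfa (1.18 in the knockout and 1.64 in WT), Pgf (1.86 in the knockout and 4.72 in WT) and Apln (1.83 in the knockout and 2.33 in WT). That is 4 of the 8 members in each library, of which Aplnr and Ramp3 had too few UMIs to be compared. Of all genes tested, 5.7% were called in the knockout and 16% in WT. The promoters printed above are of these 4 genes, of which the windows of Adm and Pgf hold the searched letters and those of Vegfa and Apln do not. Vegfb was not called, with 49.9, 50.5, 35.7 and 35.7 CPM in the knockout and 35.7, 34.9, 29.7 and 22.1 CPM in WT.

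In endothelial cells the top bin was set apart by Pgf. Its level over the bins was 124, 195, 190.5 and 873 CPM in the knockout and 46.1, 64.5, 51.1 and 315 CPM in WT, and the top over bottom ratio was log2 2.82 in the knockout and 2.77 in WT. Adm rose with the list in the knockout (119, 167, 248 and 465 CPM, log2 1.97), while its WT values of 116.5, 83.3, 83.3 and 218 CPM were not called. Aplnr went down in WT (504, 253, 274 and 231 CPM, log2 -1.12), and its knockout values of 148, 167, 143 and 98.6 CPM were not called. Called were thus 2 members in the knockout, against 6.45% of genes, and 2 in WT, against 3.49%. In WT fibroblasts Vegfa (121, 183, 240 and 450 CPM), Apln (13.1, 13.1, 29.3 and 90.4 CPM) and Pgf (7.8, 8.9, 5.8 and 51.7 CPM) were higher in the top bin, against 5.64% of genes called, whereas Adm at 264, 255, 305 and 360 CPM was not. The 94 knockout fibroblasts of this depth showed calls for Vegfa (500.0 CPM in the top and 87.0 CPM in the bottom bin) and Adm (375 CPM in the top and 116 CPM in the bottom bin), against 12.3% of genes.

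**Figure D3:**
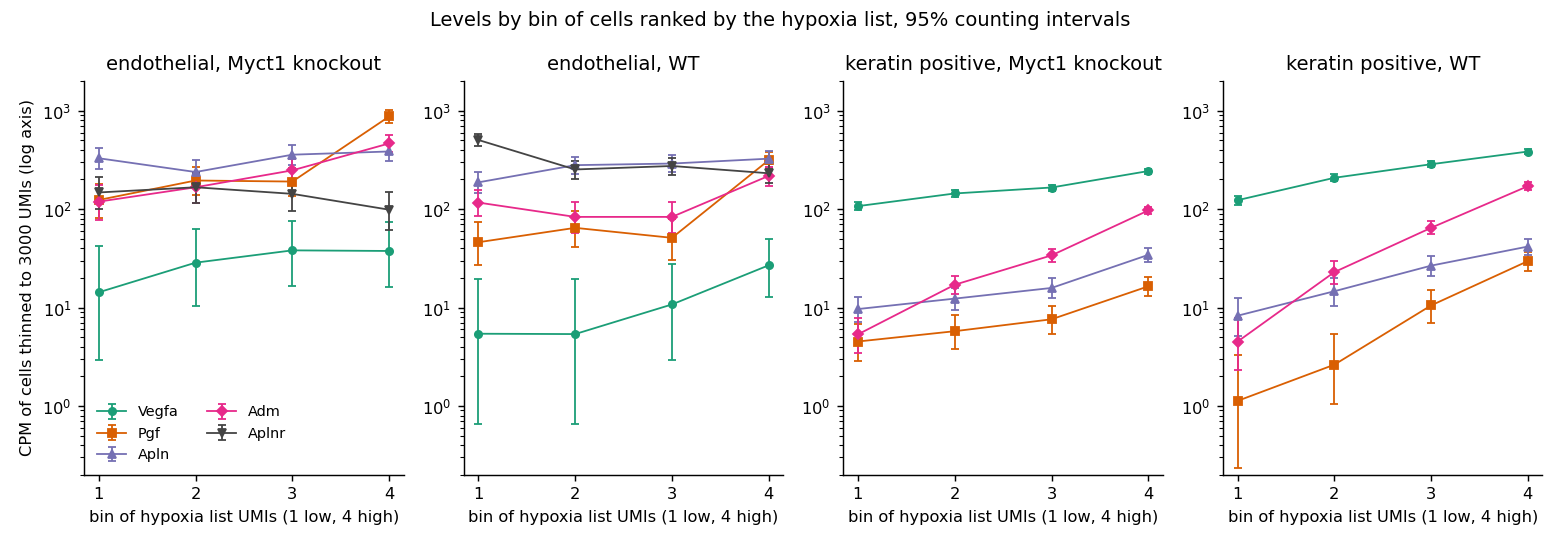
CPM (log axis) by bin of cells ranked on UMIs of the 23 hypoxia genes, for endothelial cells (left pair) and keratin positive cells (right pair), the Myct1 knockout left of WT in each pair, cells thinned to 3000 UMIs, with 95% counting intervals. Adm climbs from 5.3 to 96.9 CPM in knockout and from 4.5 to 171 CPM in WT keratin positive cells, and endothelial Pgf is highest in the top bin of both libraries.

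The libraries differed in how many endothelial cells were high for that list. Cells with 15 or more list UMIs made up 22.1% of the 281 knockout and 3.84% of the 495 WT endothelial cells of this depth, and cells with 4 or fewer made up 9.25% of knockout and 27.1% of WT cells. Compared at equal list counts, the Pgf ratio of knockout over WT was log2 2.103 (1.01 to 3.17) in cells with 0 to 4 list UMIs, 1.30 (0.69 to 1.902) with 5 to 9 and 0.77 (0.13 to 1.44) with 10 to 14. With 15 or more, 62 knockout cells had 914 CPM of Pgf and 19 WT cells had 1368 CPM, too few WT cells for a ratio under the rule of 20 cells. The Adm ratio was -0.51 (-2.03 to 0.73), 0.88 (0.33 to 1.43) and 0.51 (-0.05 to 1.09) in the 3 lower bins. Aplnr lay below 0 in the same 3 bins, at -1.89 (-2.97 to -0.98), -0.69 (-1.15 to -0.25) and -0.76 (-1.40 to -0.14). With 15 or more list UMIs, again without a ratio, Aplnr had 91.4 CPM in the knockout (17 UMIs) and 105 CPM in WT (6 UMIs). Adm had 462 CPM in the knockout and 526 CPM in WT there. In keratin positive cells at 15 or more list UMIs, Adm had 69.9 CPM in the knockout and 118 CPM in WT (log2 -0.75, -0.92 to -0.59) and Vegfa 210 CPM in the knockout and 335 CPM in WT (log2 -0.67), while at 0 to 4 list UMIs Vegfa had 76.3 CPM in the knockout and 74.6 CPM in WT (log2 0.03, -0.48 to 0.55).

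At full depth, a large part of the Pgf, Apln and Adm UMIs lay in few endothelial cells. Cells with at least 1 UMI were more common: 55.3% of knockout and 31.6% of WT endothelial cells held an Adm UMI. The top 10% of knockout cells (31 cells) held 68.7% of the Pgf, 62.1% of the Apln and 51.9% of the Adm UMIs, and the top 10% of WT cells (53 cells) held 89.7%, 72.5% and 64.6% of them. The highest knockout cell held 49 Pgf UMIs and the highest WT cell 40. Cells with more UMIs weigh more in these top 10% shares, and the shares were not compared with those of other genes of like level. The shares of cells with a UMI depend on depth, and a cell without one may still hold the RNA. At 3000 UMIs per cell, 29.5% of knockout and 12.5% of WT cells held a Pgf UMI, 36.7% of knockout and 28.1% of WT cells an Apln UMI, 38.1% of knockout cells and 99 of 495 WT cells an Adm UMI, and 26.3% of knockout and 41.2% of WT cells an Aplnr UMI. For scale, 2.26% of knockout and 2.76% of WT keratin positive cells held a Pgf UMI at the same depth, and 0.062% of knockout and 0.056% of WT keratin positive cells an Aplnr UMI.

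Endothelial cells were next split by whether they held a UMI of a member, and the levels of the 12 tip genes and the 8 venous genes were compared. In cells with an Apln UMI the tip genes Esm1 (275 and 63.7 CPM with and without, log2 2.11) and Angpt2 (1.41) were higher in the knockout, and Esm1 (1.44), Angpt2 (1.57) and Pdgfb (1.12) were higher in WT, which is 2 of 12 in the knockout and 3 of 12 in WT, with 0 lower. The venous genes had 0 higher and 3 lower of 6 tested in the knockout and 0 higher and 3 lower of 7 in WT, among them Selp (log2 -4.34 in the knockout with 1 UMI in Apln cells, -1.92 in WT) and Lrg1 (-1.39 in the knockout and -1.27 in WT). Arterial genes were lower with Apln as well, 3 of 5 in the knockout (median -1.09) and 4 of 6 in WT (median -1.80), and so were 2 of 6 capillary genes in the knockout and 3 of 7 in WT. In cells with a Pgf UMI 5 tip genes of 12 were higher in the knockout and 2 in WT, with Cxcr4 at log2 1.56 in the knockout and 1.89 in WT, and 3 venous genes of 6 were lower in the knockout and 6 of 7 in WT. Cells with an Adm UMI had 2 tip genes higher in the knockout and 4 in WT, and 2 of 6 venous genes lower in the knockout and 4 of 7 in WT. Capillary genes were lower in the Pgf split and in the Adm split, each with 1 of 6 in the knockout and 4 of 7 in WT. Arterial genes were lower too, with Pgf 1 of 5 in the knockout and 2 of 6 in WT, and with Adm 1 of 5 and 1 of 6. Over all genes, 4.08% were called in the knockout and 4.01% in WT for the Apln split, 6.18% in the knockout and 6.93% in WT for the Pgf split, and 4.1% in the knockout and 3.98% in WT for the Adm split.

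Cells with an Aplnr UMI had less Esm1 (log2 -2.31 in the knockout and -2.27 in WT) and less Pgf (-2.37 in the knockout and -2.23 in WT). Of the venous genes 1 of 6 was higher in the knockout, Selp (2.14), and 1 of 7 in WT, the venule gene Ackr1 (2.93, with 48 UMIs in 204 cells with and 9 in 291 cells without Aplnr), while Nr2f2 (-0.41) and Vwf (-0.29) in the knockout were not called. For this split 4.02% of genes were called in the knockout and 2.95% in WT. Of the 12 tip genes 0 were higher and 1 lower with Aplnr in the knockout, and 0 higher and 3 lower in WT. Arterial genes were lower with Aplnr as well, 2 of 5 in the knockout and 2 of 6 in WT. For apelin and its receptor in the same cell, thinned to 3000 UMIs, 29.1% of Apln positive and 24.7% of Apln negative knockout cells held an Aplnr UMI (20.6 to 38.9% and 18.6 to 31.7%), and 37.4% of Apln positive and 42.7% of Apln negative WT cells did (29.4 to 46.0% and 37.5 to 48.0%), so the intervals overlapped in both libraries. The order of the knockout shares turned with depth, at 16.9% of Apln positive and 22.0% of Apln negative cells when thinned to 2000 UMIs (9.31 to 27.1% and 16.7 to 28.1%) and 30% and 35.2% at 5000 UMIs (21.6 to 39.5% and 26.9 to 44.2%), against the values above at 3000 UMIs. The WT shares were 23.8% of Apln positive and 36.0% of Apln negative cells at 2000 UMIs and 43.3% and 52.0% at 5000 UMIs. Pgf and Adm went together, with Adm at log2 1.54 in the knockout and 1.59 in WT in cells with a Pgf UMI. In knockout cells with a Ramp3 UMI neither Aplnr (log2 -0.29, -1.10 to 0.45) nor the capillary gene Cd300lg (0.90, -0.21 to 1.91) was called, and Rbp7, another capillary gene, had too few UMIs. In WT cells with a Ramp3 UMI Aplnr was lower (-1.23) and Cd300lg (1.01) and Rbp7 (1.05) were higher. Of the capillary genes, 1 was higher and 1 lower of 6 with Ramp3 in the knockout, and 2 higher and 0 lower of 7 in WT. In knockout cells with an Aplnr UMI Cd300lg was higher (1.41), as 1 of 6 capillary genes tested, while 0 of 7 were called in WT. Of all genes, 4.06% were called for the Ramp3 split in the knockout and 3.94% in WT.

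**Figure D4:**
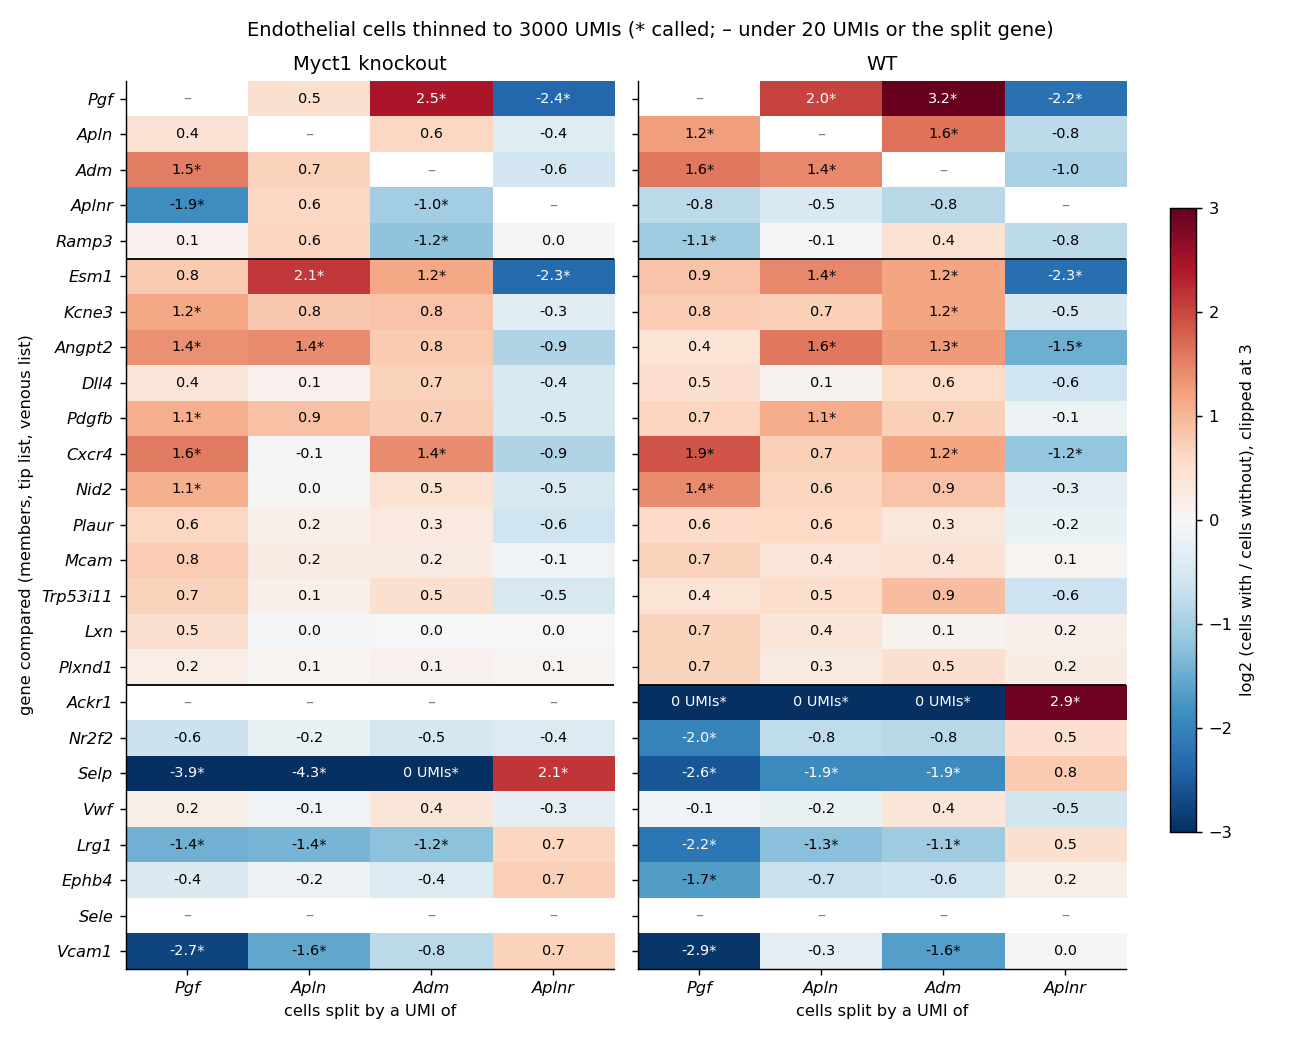
Log2 ratio of the level in endothelial cells with over those without a UMI of Pgf, Apln, Adm or Aplnr (columns), for 5 members, the 12 tip genes and the 8 venous genes (rows), the Myct1 knockout left of WT, cells thinned to 3000 UMIs. Esm1 is higher with Apln (2.11 in the knockout, 1.44 in WT) and lower with Aplnr (-2.31 in the knockout, -2.27 in WT), and stars mark called ratios.

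Endothelial subtype lists were compared between the libraries, beside the 3.82% higher, 12.6% lower and median of -0.32 over all genes. Of the 8 venous genes 1 was higher and 6 lower in the knockout with a median of -1.27 (Ackr1 -2.04, Nr2f2 -1.80, Lrg1 -1.43, Ephb4 -1.34), of the 12 tip genes 1 was higher and 1 lower with a median of -0.35, and of 7 capillary genes tested 0 were higher and 3 lower (median 0.17). The 6 arterial genes tested included 0 higher and 2 lower (median -0.50). The share of tip genes called and their median were thus close to those of all genes. Relative to the median of all genes the calls of Ackr1, Nr2f2, Lrg1 and Ephb4 held, and those of the venous genes Selp (-0.78) and Vwf (-0.89) and of the tip gene Plxnd1 (-0.73) ended. Among cells with UMIs of 2 or more venous genes Pgf had 208 CPM in the knockout and 63.9 CPM in WT (log2 1.70, 1.23 to 2.18) and Aplnr 172 CPM in the knockout and 327 CPM in WT (log2 -0.93, -1.33 to -0.55). Among cells with none, Pgf had 474 CPM in the knockout and 222 CPM in WT (log2 1.09) and Aplnr 122 CPM in the knockout and 306 CPM in WT (log2 -1.33), in 52 knockout and 24 WT cells.

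The genes most like each member were found by Pearson's r of log2 of CPM plus 10. The r was taken over the 9 class by library sums of 20 or more cells, as a description over points that share libraries. Among the 9 was the sum of the 35 WT macrophage-gated cells, where 1 cell held 85 of the 96 Adm UMIs. The 3 highest of 8695 genes over 9 points are also high in part by selection. Closest to Vegfa were Hk2 (r = 0.97), Pla2g4a (0.96) and P4ha1 (0.95), of which Hk2 and P4ha1 are on the hypoxia list. Closest to Aplnr were Erg, St8sia6 and Il4i1 (r = 1.00 each), to Ramp3 Nxpe2, Icam2 and Vwa1 (0.99 each), to Apln Bmp4, Plcb1 and Trim69 (0.96, 0.96 and 0.95), and to Adm Ints3, H2-K1 and Il18bp (0.98, 0.95 and 0.94). Closest to Pgf were Blvra, Tmem51 and Anapc15 (0.95 each), to Vegfb Gtf3a, Rpl21 and Rpl36-ps3 (0.98, 0.97 and 0.97), and to Vegfc Cyp2j6, Shb and Ccrn4l (0.97, 0.95 and 0.94).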

How the data were processed

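Single-cell RNA was measured in 1 library per genotype from tumours digested with collagenase-II, dispase-II and DNase, on the 10x Chromium 3′ platform, per the labels' protocols. For each library the authors deposited a table of raw UMI counts, genes by barcodes. The submitters' processing notes name Cell Ranger 2.1.1 and mm10. The annotation release and the deletion design are not stated there, and genes with a highest count under 4 UMIs are absent from both tables, so that a gene missing from 1 table may have been below that limit. The row of totals was left out.

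Barcodes with fewer than 200 genes or more than 10% mitochondrial UMIs were removed, as were doublets with a neighbour score above 0.3 (228 knockout and 279 WT cells), which left 7994 knockout and 7841 WT cells. Endothelial, mural and macrophage cells had 3 or more markers at 0.1% or more of the cell's UMIs, fibroblasts 4 or more at 0.5%, each with at least 3 times as many marker as keratin UMIs, and keratin positive cells had both Krt8 and Krt18 at 0.02% or more and passed no other gate. Cells of 2 gates were left out as mixed. Counts were summed per class and library, given as CPM of the sum, and compared by exact conditional binomial intervals at 95%. Ratios were called at 2-fold with an interval that excluded 0 and 20 or more UMIs, without a test, since each genotype has 1 library. Intervals cover counting error only and not differences between animals. To split cells within a class, each cell was thinned to 3000 UMIs and shallower cells were left out. Clusters came from 2000 variable genes, 40 components and 20 neighbours with Leiden clustering at resolution 1.0. Scripts were tested on simulated counts with known ratios. Intervals came from scipy 1.17.1 and tables from pandas 2.3.3 and numpy 2.4.6, under Python 3.11.15. Clusters came from leidenalg 0.10.2 through scanpy 1.11.5, neighbours for doublets from scikit-learn 1.9.0, and figures from matplotlib 3.10.9.

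The members and the lists of receptors and partners, hypoxia, tip, venous, arterial and capillary genes were chosen with earlier results of these data known. All 8 members are named, together with the genes of these lists whose ratios were called or that are discussed as receptors, up to 4 genes per list that stood farthest from 0, and the 3 genes most like each member. Alternatives were other gates, cell filters, scalings, depths and cell weights. Promoters came from the RefSeq table of GRCm38.p6, which matched 7 of the 8 members.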

Additional observations from a re-analysis of the deposited data

Results flagged for a closer look

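Pgf, Vegfa and Adm lay on opposite sides of 0 for knockout over WT in different classes, with intervals that excluded 0 in each class named here. Apln did so too, but its endothelial interval included 0 (log2 0.09, -0.03 to 0.22). This is a difference that was not tested because each genotype had 1 library. The log2 ratio of Pgf was 2.61 higher in endothelial than in mural cells and 1.99 higher in endothelial than in keratin positive cells. That of Vegfa was 1.78 higher in endothelial and 2.11 higher in mural than in keratin positive cells. That of Adm was 1.95 higher in endothelial cells than in fibroblasts and 1.75 higher than in keratin positive cells. The mural Pgf value rests on 19 UMIs in 33 knockout cells. The calls of mural Pgf, mural Vegfa and endothelial Vegfa ended under some of the alternatives given above.

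Macrophage-gated cells were outside the 4 classes compared. In the WT library Adm stood at 722 CPM in 35 such cells (585 to 882 CPM), from 96 UMIs in 3 cells, 1 of which held 85. In the knockout library 9 such cells held 2 Adm UMIs.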

How the results depend on the processing

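No paired analysis was possible because each genotype had 1 library. The calls of endothelial Pgf (log2 1.10 to 1.73) held under every alternative run, and that of Aplnr under all but the centring on the median of all genes (-0.97). Endothelial members called, 4 as reported, numbered 2 with a mitochondrial limit of 20%. In mural cells, where 2 were called, 0 were called with doubled marker shares and 1 each without keratin UMIs, with a mitochondrial limit of 5%, with TMM scaling, with the median ratio set to 0, with thinning to 3000 UMIs and with the mean of per-cell CPM. In fibroblasts, where 0 were called, 2 were called with doubled marker shares, without the keratin limit, with TMM scaling and with thinning, and 1 with classes from clusters, with doublets kept and with the mean of per-cell CPM. The share of all genes called under each alternative is not given for the counts here and below. Whether these counts moved with all genes was not tested.

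Within the knockout library, the members called for fibroblast over keratin positive cells (2) numbered 4 with doubled shares, 4 with clusters and 1 with thinning. Those for mural over keratin positive cells (4) numbered 1 without keratin UMIs and 1 with thinning, and those for mural over fibroblast cells (3) numbered 1 with thinning and 5 with the mean of per-cell CPM. Directions turned for Apln in knockout mural cells, over keratin positive cells (1.17 with doubled shares, 1.30 with clusters) and over fibroblasts (1.19 with doubled shares, 1.13 with clusters), for Adm in mural over keratin positive cells (0.41 with clusters) and for Pgf in fibroblast over keratin positive cells (-0.27 with thinning). The causes were not tested. Leaving out the shared barcodes, an alternative chosen after seeing the data, kept all 185 values and counts on their side of the rule. Mural values in the knockout rest on 33 cells.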
